A study of Mus musculus with 27 samples.

Results

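Livers of aged mice that had been calorie restricted for all or most of adult life were compared with livers of mice that had never been restricted. The ever restricted livers were those of 12 of the 27 mice measured, chosen by diet group alone: 5 mice on 30% calorie restriction (CR) and 7 mice (CR-MF) that came off restriction and onto a medium-fat diet when they were 24 months old. The never restricted livers were those of the other 15 mice, 8 on the control diet (C) and 7 on the medium-fat diet (MF). The difference reported throughout is the mean of the CR and CR-MF group means minus the mean of the C and MF group means. Each restricted group is thereby set against the unrestricted group that ate the same kind of diet at the end of the study. The pairs are matched for the kind of diet only. MF mice ate the medium-fat diet from young adulthood, far longer than the CR-MF mice. In that pair, past restriction and the length of fat feeding cannot be told apart. The CR mice were still restricted, so past and current restriction cannot be told apart in CR.

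All mice were male C57BL/6J, an inbred laboratory strain, and were 28 months old when their livers were taken, so that the CR-MF mice had eaten the medium-fat diet for 4 months. C mice ate a purified control diet ad libitum, and MF mice a version of it with 25% of its energy as fat. The CR mice had a single daily portion of a diet made for restriction, and the CR-MF mice were brought onto the MF diet in weekly steps. The mice were housed singly. All were fasted before sacrifice, and during the fast each was given a carboxymethyl cellulose solution without drug by gavage. Only the CR mice were given part of a portion shortly before the fast, so restriction and the last meal cannot be told apart in CR. RNA was measured with 1 Affymetrix Mouse Gene 1.1 ST array per mouse. Values are log2 intensities, on which a difference of 1 is a doubling, and an intensity of 20 (log2 4.32) was taken as the level under which a gene is not measured. Of 18820 genes with 1 symbol, 13993 passed the filter on low and invariant values. P-values from limma were adjusted by the Benjamini-Hochberg method over all of these, a gene was called at an adjusted p under 0.05, and "rose" and "fell" are used for called genes only.

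Calorie restriction lowers circulating insulin, leptin and growth factors, and in the liver it moves metabolism from fat storage towards glucose production and fat use. Growth hormone reaches the mouse liver in pulses in males and more evenly in females, and through the transcription factor STAT5 this pattern sets the liver genes that are expressed more in one sex. With age, the male pattern weakens, macrophages and lymphocytes accumulate and matrix is laid down. The genes below are ordered by these roles. All groups gave livers by their markers: the summed level of 16 hepatocyte markers lay between 16.72 and 16.92 in every mouse, while that of 8 exocrine pancreas markers lay between 7.21 and 7.56.

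In ever restricted livers 490 genes rose (3.5% of those tested) and 662 fell (4.73%). The changes were small for most: 835 of the 1152 genes moved by less than 0.5 on the log2 scale and 50 by 1 or more. The 2 diet-matched differences that make up the contrast, CR minus C and CR-MF minus MF, share no mice. The 1152 genes were called on the mean of these 2 differences, which favours the same direction in both. Their agreement is therefore no separate test, unlike that of genes called in 1 difference or of all genes tested. Of the 1152 genes, 1142 had the same direction in both, and 537 (3.84% of all genes tested) had an unadjusted p under 0.05 in both, 240 of them higher and 297 lower. For another 382 the p was under 0.05 in CR minus C alone and for 233 in CR-MF minus MF alone. On its own, CR minus C gave 107 genes higher (0.765%) and 113 lower (0.808%), and CR-MF minus MF gave 77 higher (0.55%) and 125 lower (0.893%). Of the 220 genes called in CR minus C, 195 (88.6%) had the same direction in CR-MF minus MF, and of the 202 called in CR-MF minus MF, 190 (94.1%) had the same direction in CR minus C. Over all genes tested, 64.7% had the same direction in both, and the correlation of the 2 differences across genes, which are not independent replicates, was 0.50. Called in both on their own were 17 genes, 7.73% of the first set and 8.42% of the second, all in the same direction.

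The medium-fat diet eaten at the end of the study, averaged over both histories, gave 17 called genes (0.121%), 8 of which were also among the 1152. No gene passed the test of the interaction, which asks whether CR minus C differs from CR-MF minus MF (0%, smallest adjusted p = 0.189 from limma). At an unadjusted p under 0.05, 1070 genes (7.65%) differed between the diet-matched pairs. The split between rises and falls depended on how arrays were scaled: after quantile normalization 798 genes rose and 628 fell, and after centring each array on its median 2178 rose and 470 fell. The number of called genes was 728, 733 or 748 without the CR mouse B4_3, B4_1 or B4_13 and 1946 without the CR-MF mouse BC4_11. Without BC4_11 and BC4_15, which stood apart from the CR-MF group in earlier results of these data, 891 genes rose and 1413 fell. The codes in the array names are read here as plate and well row, a meaning that is inferred. By these codes, plate G150 held 19 mice of all groups, and 226 genes rose and 451 fell within it. Well rows followed the groups (all CR-MF mice in row H, all MF mice in row G, all C mice in row F, and CR mice in F and G), so that CR-MF and row H cannot be told apart.

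**Figure D1:**
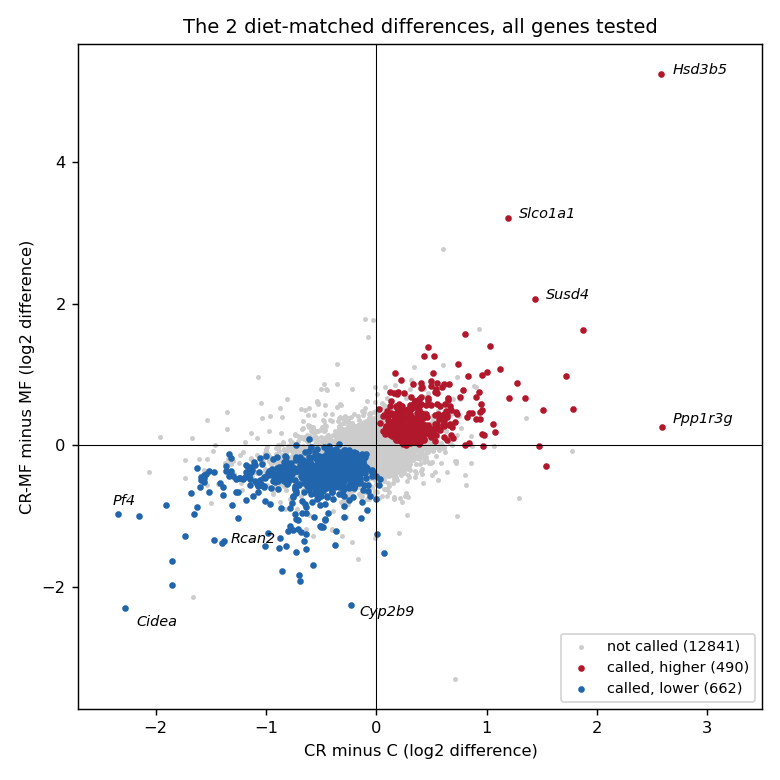
Each point is 1 of the 13993 genes tested, with its log2 difference CR minus C on the x axis and CR-MF minus MF on the y axis. The 490 genes called higher (red) lie mostly in the upper right and the 662 called lower (blue) in the lower left corner. Hsd3b5 stands highest at 5.25 on the y axis, and Ppp1r3g at 2.59 on the x axis lies close to the x axis line with 0.26.

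Rcan2, an inhibitor of the calcium-dependent phosphatase calcineurin (chr17:43801352-44039516, GRCm38.p6), separated the mice without overlap. Its level was 7.12 to 8.22 in C (median 7.61), 6.88 to 8.23 in MF (median 7.82) and 5.89 to 6.79 in CR-MF (median 6.30), while the 5 CR mice had 5.97, 5.99, 6.20, 6.23 and 6.73. Every one of the 12 ever restricted mice was below every never restricted mouse. Rcan2 fell by 1.37 (standard error 0.14, 2.58-fold, adjusted p = 2.25e-06 from limma), by 1.38 in CR against C and by 1.36 in CR-MF against MF. Within plate G150 alone the difference was −1.24, and on the plates with 1 mouse of each group it was −1.61 and −1.69.

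There were 3 such genes without overlap among all tested (0.0214%), and the other 2 were higher; they were named after their values were seen. Under quantile normalization Rcan2 kept its separation, both of the others lost it and Tcn2 was lower without overlap, and under median centring no gene was without overlap. Dnaja4, a co-chaperone of HSP70 (chr9:54698848-54716317), was 5.15 to 5.66 in C (median 5.49), 5.36 to 5.67 in MF (median 5.61) and 5.68 to 6.20 in CR-MF (median 6.06), and the CR mice had 5.95, 5.99, 6.07, 6.10 and 6.38. The lowest ever restricted mouse, of CR-MF, lay just above the highest never restricted mouse. Dnaja4 rose 1.45-fold (log2 difference 0.53, standard error 0.07, adjusted p = 7.06e-05 from limma). Fam120a, an RNA-binding scaffold protein, rose by only 0.15 (standard error 0.03, adjusted p = 0.00452), with never restricted mice at 9.97 to 10.10 and ever restricted mice at 10.10 to 10.32 (the lowest of these is higher beyond the second decimal). Within plate G150 its adjusted p missed the threshold.

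The other genes with the smallest p had nearly separate groups. Mbnl3, a regulator of splicing, fell by 0.96 (standard error 0.12, adjusted p = 7.00e-05 from limma), and 13 of the 15 never restricted mice were above all ever restricted mice. Crybg2 fell by 0.59 (standard error 0.08, adjusted p = 0.000138) and Gyg, the glycogenin that primes glycogen chains, by 0.42 (standard error 0.07, adjusted p = 0.000943). Osgin1, a target of NRF2, rose by 0.71 (standard error 0.10, adjusted p = 0.000138). Slc43a1, a transporter of branched-chain amino acids, rose by 0.90 (standard error 0.14, adjusted p = 0.000526), with 9 of the 12 ever restricted mice above all never restricted mice.

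**Figure D2:**
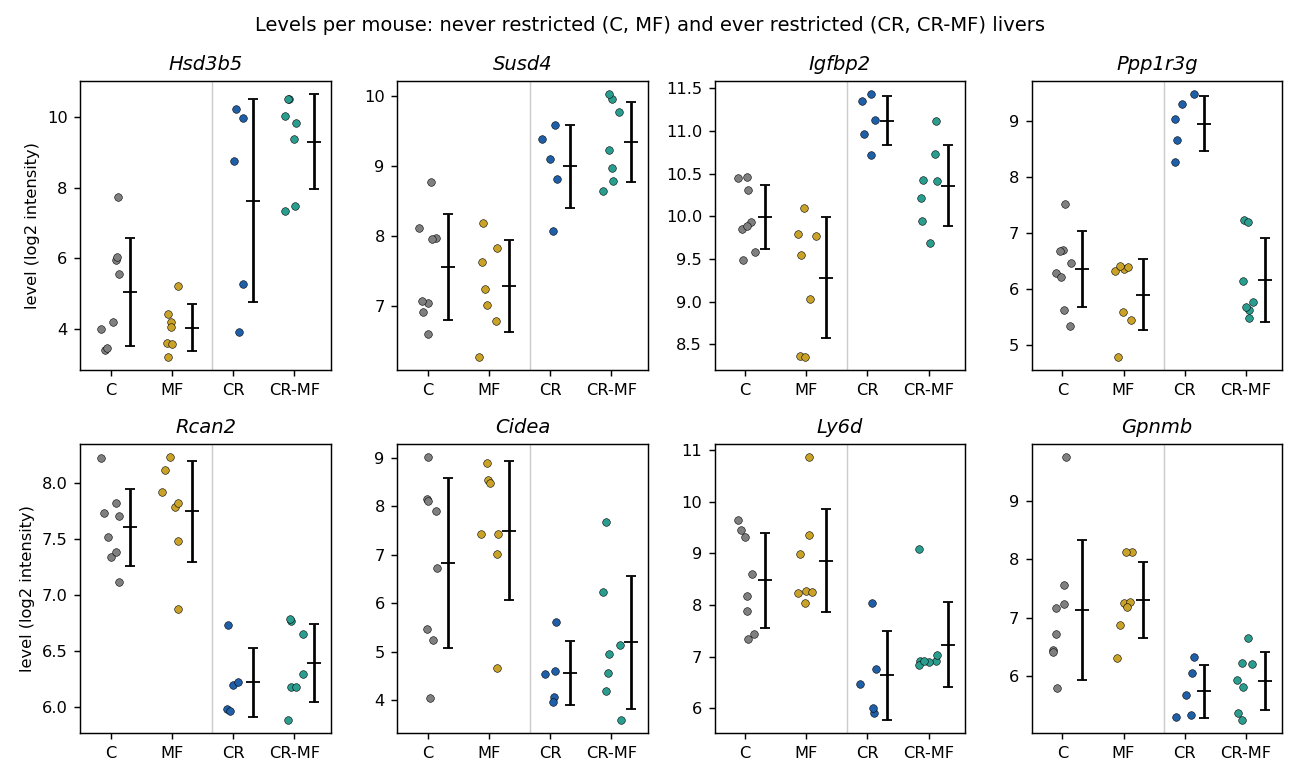
Levels (log2 intensity, y axis) of 8 genes in each mouse of the C (n = 8), MF (n = 7), CR (n = 5) and CR-MF (n = 7) groups, 1 point per mouse, with the mean and SD as bars. Rcan2 does not overlap between never and ever restricted mice, Hsd3b5 has 2 CR mice within the range of C, and Ppp1r3g is high in CR alone.

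Among liver genes expressed more in one sex, the calls in male-biased genes were all rises and those in female-biased genes all falls. Of 28 male-biased liver genes tested, 15 rose and none fell, with a median difference of 0.61 against 0.00894 over all genes, and 27 were above 0. Of 24 female-biased genes, 10 fell and none rose, with a median of −0.64, and 21 were below 0. The medians lay farther from 0 in CR-MF minus MF: the median of the male-biased genes was 0.37 in CR minus C and 0.82 in CR-MF minus MF, and that of the female-biased genes was −0.25 and −0.87. In CR-MF minus MF, 27 of the 28 male-biased genes were above 0 and all 24 female-biased genes below 0. In CR minus C, 6 of the 28 male-biased genes and 16 of the 24 female-biased genes were below 0. On its own, CR-MF minus MF gave 11 male-biased genes called higher and 8 female-biased genes called lower. For CR minus C these calls numbered 2 and 0. The interaction had an unadjusted p under 0.05 for 6 male-biased and 6 female-biased genes, none after adjustment over all genes. With 1 mouse left out these counts were 2 to 12 for male-biased genes, with 2 without B4_7, 3 without B4_5, 10 without C4_1, 11 without B4_13 and 12 without A4_9, and 6 to 10 for female-biased genes, with 10 without C4_1. Within plate G150 they were 16 and 8. With any 1 mouse left out, 11 to 17 male-biased genes rose (11 without B4_13 or B4_3) and 5 to 12 female-biased genes fell (5 without B4_1, B4_13, B4_3 or BC4_1, and 6 without A4_17, BC4_13, BC4_5, BC4_9 or C4_11).

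Hsd3b5, a steroid dehydrogenase of the male mouse liver (chr3:98618636-98645534), showed the largest difference of all calls. Its level was 3.40 to 7.73 in C (median 4.88), 3.21 to 5.23 in MF (median 4.05) and 7.33 to 10.51 in CR-MF (median 9.83), and the CR mice had 3.92, 5.28, 8.75, 9.97 and 10.22. All CR-MF mice were above all MF mice, whereas 2 of the 5 CR mice lay within the range of C. Since the MF mean lay under the measuring threshold, Hsd3b5 is given as at least 12.2-fold higher in ever restricted livers (log2 difference 3.91, standard error 0.60, adjusted p = 0.000533 from limma). The difference was 3.22 within plate G150, and by well row the CR mice of row F exceeded C by 0.94 and those of row G exceeded MF by 6.05.

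Susd4, a membrane regulator of complement (chr1:182764044-182896596), was less variable. It spanned 6.60 to 8.78 in C (median 7.51), 6.27 to 8.19 in MF (median 7.24) and 8.64 to 10.03 in CR-MF (median 9.23), with 8.07, 8.82, 9.11, 9.39 and 9.59 in the CR mice. The highest C mouse overlapped with the lowest of both restricted groups. Susd4 rose 3.37-fold (log2 difference 1.75, standard error 0.24, adjusted p = 0.000162 from limma), by 1.44 in CR against C and 2.07 in CR-MF against MF. Ttc39c rose by 0.94 (standard error 0.12, adjusted p = 7.06e-05), with 11 of the 12 ever restricted mice above all others. Gstp1, a glutathione transferase, rose by 0.64 (standard error 0.11, adjusted p = 0.000943), and Mup21, a urinary pheromone carrier, by 0.85 (standard error 0.17, adjusted p = 0.00482). Cyp4a12a and Cyp4a12b, male-specific fatty acid hydroxylases, were not called, with differences near 0 in CR minus C (−0.07 and −0.04) and of 1.52 and 1.76 in CR-MF minus MF.

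Slco1a1, an organic anion and bile acid carrier of the hepatocyte (chr6:141907281-141946962), had the second largest rise. C mice spanned 4.33 to 9.96 (median 8.66), MF mice 5.16 to 10.02 (median 6.55) and CR-MF mice 9.24 to 10.74 (median 10.42), and the CR mice had 5.49, 8.25, 10.01, 10.44 and 10.50. The spread among never restricted mice was wide and the groups overlapped. Slco1a1 rose 4.61-fold (log2 difference 2.20, standard error 0.61, adjusted p = 0.0272 from limma), a call that ended without B4_1, B4_13 or B4_3 (highest adjusted p = 0.059).

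Among female-biased genes, Cyp17a1, which makes androgen precursors in steroid-forming cells, had 10.25 to 12.41 in C (median 12.17), a mean of 12.33 ± 0.31 (SD, n = 7) and a highest value of 12.72 in MF (median 12.14), 10.04 to 11.46 in CR-MF (median 10.96) and 10.18, 10.44, 10.86, 10.92 and 11.83 in the CR mice. No MF mouse overlapped with an ever restricted mouse, while part of the C mice did. It fell 2.32-fold (log2 difference −1.22, standard error 0.21, adjusted p = 0.00133 from limma). Nt5e, a surface enzyme that forms adenosine, had a log2 difference of −1.13 (adjusted p = 0.000943, standard error 0.19), with −0.58 in CR minus C and −1.69 in CR-MF minus MF. The falls of Cyp2b9 (−1.25, adjusted p = 0.0375), Fmo2 (−0.63, adjusted p = 0.0471) and Slc22a27 (−0.73, adjusted p = 0.0433) were made of −2.26, −1.26 and −1.53 in CR-MF minus MF and of −0.23, 0.00 and 0.07 in CR minus C, with the interaction not called for any gene. These 3 calls ended on leaving out any of 9, 19 and 16 single mice. Genes of the Cyp2, Slc22a and Mup families have near-identical copies, so probes may be shared between members.

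**Figure D3:**
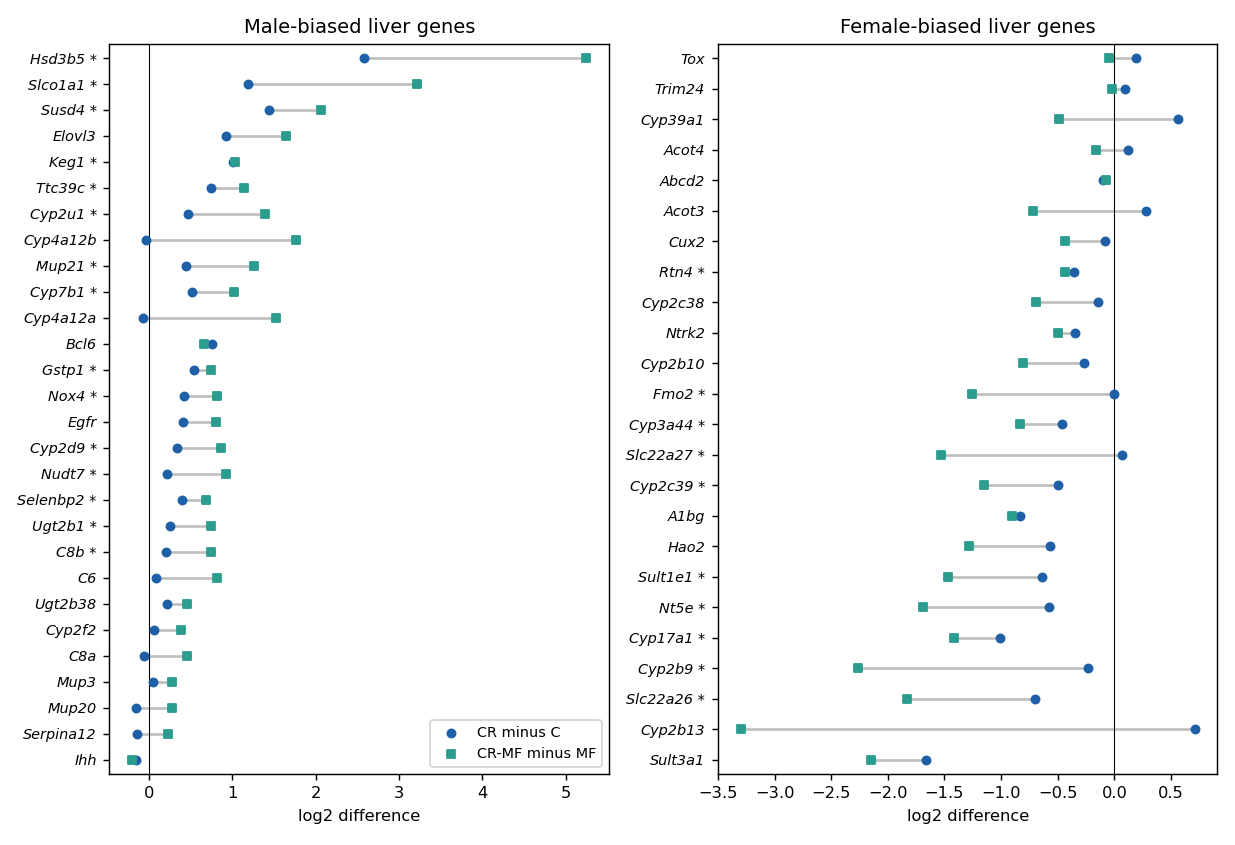
Log2 differences (x axis) of the 28 male-biased (left) and 24 female-biased (right) genes tested, CR minus C as circles and CR-MF minus MF as squares; an asterisk marks genes called in the ever minus never contrast. Most male-biased genes lie to the right of 0 and most female-biased genes to the left, with squares further out than circles for most genes.

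The promoter of Keg1 is shown because this male-biased gene, a glycine acyltransferase-like protein, was among the 12 largest rises and holds the letters bound by STAT5, TTCNNNGAA, at 2 places. The window runs from 250 bases before to 50 after the start of the RefSeq gene (chr19:12695540-12695839, plus strand, GRCm38.p6), with the matches in capitals.
Keg1: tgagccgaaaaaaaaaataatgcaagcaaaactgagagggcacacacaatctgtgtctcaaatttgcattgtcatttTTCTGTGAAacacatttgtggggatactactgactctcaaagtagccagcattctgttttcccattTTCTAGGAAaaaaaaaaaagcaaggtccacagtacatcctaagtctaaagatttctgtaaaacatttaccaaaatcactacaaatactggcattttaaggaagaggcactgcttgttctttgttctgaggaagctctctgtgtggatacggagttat
Keg1 was 8.48 to 10.78 in C (median 9.53), 9.03 to 10.30 in MF (median 9.62), 9.96 to 11.10 in CR-MF (median 10.67) and 9.70, 10.68, 10.88, 10.94 and 11.13 in the CR mice. The groups overlapped, with 6 of the 12 ever restricted mice above all others. It rose by 1.02 (standard error 0.21, adjusted p = 0.00532 from limma), and within plate G150 alone its adjusted p was 0.0517. The motif, which reads alike on both strands, was found for 4 of 21 male-biased genes with a window (19%) and 4 of 20 female-biased genes (20%). It was found for 33 of 390 genes that rose (8.46%), 43 of 515 that fell (8.35%), 8.42% of the genes tested and 8.3% of all 32851 windows. A match is a run of letters and does not show binding.

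Of 26 genes of growth hormone and IGF signalling, 2 rose (7.69%, against 3.5% over all genes) and 1 fell (3.85%, against 4.73%), with a median of 0.04. With 1 mouse left out 1 to 4 rose and 0 to 4 fell, and after median centring 6 rose and none fell. Igfbp2, a binding protein that holds IGFs in the circulation (chr1:72824480-72852474), was 9.49 to 10.46 in C (median 9.90), 8.35 to 10.10 in MF (median 9.55) and 9.69 to 11.11 in CR-MF (median 10.41), with 10.72, 10.96, 11.13, 11.35 and 11.43 in the CR mice. All CR mice were above all never restricted mice, and CR-MF mice overlapped with C. Igfbp2 rose 2.15-fold (log2 standard error 0.18, adjusted p = 0.000943 from limma), by 1.12 in CR against C and 1.08 in CR-MF against MF. Ghr, the growth hormone receptor, rose by 0.15 (adjusted p = 0.0288, standard error 0.04), and lost its call without B4_1 or B4_13, whereas Igf1 itself had a difference of 0.01 (standard error 0.05, adjusted p = 0.884).

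Of 26 genes of fatty acid uptake and lipid droplets, 8 fell and none rose, with a median of −0.23. Without B4_1, B4_3, B4_7, BC4_13, BC4_5 or C4_5 the falls numbered 5. Cidea, a lipid droplet protein that fuses droplets in fat cells and in fatty liver, was 4.04 to 9.02 in C (median 7.31), 4.66 to 8.89 in MF (median 7.43) and 3.59 to 7.67 in CR-MF (median 4.95), and the CR mice had 3.96, 4.05, 4.54, 4.60 and 5.61. The spread among never restricted mice covered nearly the whole range, and 7 of the 15 were above all ever restricted mice. Cidea fell 4.9-fold (log2 difference −2.29, standard error 0.52, adjusted p = 0.00865 from limma), with −2.28 in CR minus C and −2.31 in CR-MF minus MF.

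Cd36, the fatty acid translocase, was 10.49 to 11.42 in C (median 11.15), 10.87 to 11.49 in MF (median 11.37), 9.41 to 10.83 in CR-MF (median 10.34) and 9.73, 10.27, 10.28, 10.49 and 11.01 in the CR mice. All CR-MF mice were below all MF mice. It fell 1.84-fold (log2 difference −0.88, standard error 0.16, adjusted p = 0.00171 from limma). Vldlr, a lipoprotein receptor, fell by 0.58 (standard error 0.13, adjusted p = 0.00728), with −0.14 in CR minus C and −1.02 in CR-MF minus MF. Apoa4, an apolipoprotein of chylomicrons, fell by 0.46 (standard error 0.10, adjusted p = 0.00602). Pparg, a regulator of fat storage, fell by 0.48 (adjusted p = 0.0232, standard error 0.13), and lost its call without B4_3 (adjusted p = 0.0537). The calls of Cidec (−1.51, adjusted p = 0.0417) and Fabp4 (−0.94, adjusted p = 0.0485) ended on leaving out any of 17 and 20 single mice, and Cav1, the caveolin, was not called at 0.15 (standard error 0.12, adjusted p = 0.431). Aqp7, a glycerol channel, was under the threshold on average in CR-MF and at least 2.35-fold lower in ever restricted livers (log2 difference −1.32, adjusted p = 0.00652).

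Adipocytes also express some of these genes. Of 4 adipocyte markers tested, 2 fell, Cidea and Fabp4, both also members of the storage list, and the defining marker Adipoq was under the threshold in every mouse. The summed level of the 6 adipocyte markers on the array was 7.48 to 9.48 in C, 8.73 to 10.25 in MF, 7.63 to 7.96 in CR and 7.60 to 8.82 in CR-MF, and its part in the result was not tested. In whole liver, fewer cells of a type and less RNA per cell cannot be told apart.

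All 20 genes of cholesterol synthesis were above 0, and 5 rose, with a median of 0.48 (0.57 in CR minus C and 0.44 in CR-MF minus MF). Insig1, which holds the SREBP activator in the endoplasmic reticulum, was 8.77 to 10.85 in C (median 10.02), 8.71 to 10.47 in MF (median 10.04), 10.40 to 10.97 in CR-MF (median 10.55) and 10.52, 10.63, 10.99, 11.03 and 11.48 in the CR mice. Never restricted mice spread over a wide range, and 11 of the 15 were below all ever restricted mice. Insig1 rose 1.79-fold (log2 difference 0.84, standard error 0.19, adjusted p = 0.00773 from limma), with 1.08 within plate G150 and 0.32 and 0.13 on the other plates. Stard4, a cholesterol carrier, rose by 0.59 (standard error 0.15, adjusted p = 0.0174). The calls of Cyp51 (0.97, adjusted p = 0.0417) and Lss (0.73, adjusted p = 0.0418) ended on leaving out any of 15 and 16 single mice, and that of Pmvk (0.77, adjusted p = 0.0177) with the animal number as a replicate block (adjusted p = 0.0527). The list counted 2 rises with that block and 3 to 8 with 1 mouse left out (8 without A4_9), and 14 single mice each moved it by over 1.5 times. The SREBP letters TCACNCCAC, searched on both strands, were found for 1 of 16 genes of this list with a window, Hmgcs1, against 1.5% of genes tested and 1.24% of all windows.

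The shares called among genes of lipogenesis and fatty acid oxidation were near those over all genes (3.5% higher, 4.73% lower): of 20 lipogenesis genes Mlxipl, the factor ChREBP, rose by 0.30 (5% of the list), and of 23 oxidation genes the hormone Fgf21 fell by 0.47 (4.35%). Of 23 genes of bile acid synthesis and transport, 5 rose (2 without B4_3, 3 without B4_1 or B4_13) and 1 fell. Cyp8b1, which makes cholic acid, rose by 0.74 (standard error 0.18, adjusted p = 0.0163 from limma), Abcc2, an exporter into bile, rose by 0.21 (standard error 0.05, adjusted p = 0.0159), and Abcc4, an exporter into blood, fell by 0.62 (standard error 0.14, adjusted p = 0.00866). Of 25 genes of the urea cycle and amino acid metabolism 4 rose (16%) and 1 fell (4%). The rises numbered 8 without A4_1 and 7 without C4_13. Of 37 subunits of the respiratory chain, 5 rose by 0.14 to 0.27, a count that was 0 to 10 with 1 mouse left out (0 without B4_13 or B4_3, 10 without C4_13) and 12 without BC4_11 and BC4_15. After median centring 22 respiratory chain genes rose, and 14 of the urea cycle list. Of 24 antioxidant genes and NRF2 targets 1 rose (4.17%, against 3.5% over all genes) and 2 fell (8.33%, against 4.73%). Their median was 0.04, and leaving out any of 21 single mice took the falls to 1. Of the called genes, Gpx3, which reduces peroxides in plasma, fell by 1.12 (adjusted p = 0.00461 from limma, standard error 0.23). Gpx6 rose by 1.35 (adjusted p = 0.0173 from limma, standard error 0.34).

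Of 17 genes of glycogen and gluconeogenesis 5 rose (3 without B4_3), and the largest was Ppp1r3g, which directs a phosphatase to glycogen (chr13:35958824-35970388). It was 5.35 to 7.52 in C (median 6.38), 4.79 to 6.41 in MF (median 6.32) and 5.48 to 7.23 in CR-MF (median 5.77), and 8.26, 8.66, 9.03, 9.30 and 9.47 in the CR mice. All CR mice were above all other mice, and CR-MF lay within the range of C. Its log2 difference was 1.42 (standard error 0.24, adjusted p = 0.00107 from limma), made of 2.59 in CR minus C and 0.26 in CR-MF minus MF. The interaction was not called (adjusted p = 0.312 from limma). Ppargc1a, the coactivator of mitochondrial genes and gluconeogenesis, had 0.97 in CR minus C and −0.01 in CR-MF minus MF (log2 difference 0.48, adjusted p = 0.0178, and for the interaction an adjusted p of 0.312 from limma). Of 16 clock genes 2 rose (12.5%, against 3.5% over all genes), and 6 rose after median centring. The 2 were Rora, by 0.31 (0.49 and 0.14 in the diet-matched pairs, adjusted p = 0.00262 from limma), and Cry2, by 0.21 (adjusted p = 0.0212 from limma).

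Of 26 genes of endoplasmic reticulum stress 6 rose and none fell (13 rose after median centring), 5 of them also called in CR minus C and none in CR-MF minus MF. Derl3, which helps to extract misfolded proteins, rose by 1.15 (standard error 0.20, adjusted p = 0.00151 from limma), with 1.78 in CR minus C and 0.52 in CR-MF minus MF. Sdf2l1, a cofactor of the chaperone BiP, rose by 0.70 (standard error 0.15, adjusted p = 0.007), and Pdia6, a disulfide isomerase, by 0.40 (standard error 0.08, adjusted p = 0.00552). Of 24 N-glycosylation genes 1 rose (4.17%, against 3.5% over all genes) and 3 fell (12.5%, against 4.73%). Fut8, which adds core fucose, was 6.08 to 6.46 in C (median 6.27), 5.87 to 6.93 in MF (median 6.35), 5.54 to 6.29 in CR-MF (median 5.79) and 5.66, 5.86, 5.88, 5.92 and 6.05 in the CR mice. It was lower in 8 of the 12 ever restricted mice than in any other mouse, and fell by 0.47 (standard error 0.09, adjusted p = 0.00248). Hexa, a lysosomal hexosaminidase, fell by 0.38 (standard error 0.09, adjusted p = 0.0111). Rpn2, of the oligosaccharyltransferase, rose by 0.13 (adjusted p = 0.0303), a call that ended without B4_3 and after quantile normalization, while Rpn1 (0.17, adjusted p = 0.0569), Uggt1 (0.17, adjusted p = 0.0679) and Mogs (0.13, adjusted p = 0.281) were not called.

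The metallothioneins Mt1 and Mt2, which bind zinc and copper, fell. The promoters of Mt1 (chr8:94178839-94179138) and Mt2 (chr8:94172368-94172667), both on the plus strand, are shown because the 2 neighbouring genes moved together and hold the core letters of the metal response element, TGCGCNC or TGCACNC, at 3 and 4 places counted on both strands, in capitals.
Mt1: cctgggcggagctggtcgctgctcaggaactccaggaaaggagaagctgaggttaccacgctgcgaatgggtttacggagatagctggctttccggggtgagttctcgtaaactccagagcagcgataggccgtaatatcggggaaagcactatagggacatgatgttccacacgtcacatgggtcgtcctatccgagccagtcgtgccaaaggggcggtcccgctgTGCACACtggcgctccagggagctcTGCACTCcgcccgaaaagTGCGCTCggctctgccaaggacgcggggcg
Mt2: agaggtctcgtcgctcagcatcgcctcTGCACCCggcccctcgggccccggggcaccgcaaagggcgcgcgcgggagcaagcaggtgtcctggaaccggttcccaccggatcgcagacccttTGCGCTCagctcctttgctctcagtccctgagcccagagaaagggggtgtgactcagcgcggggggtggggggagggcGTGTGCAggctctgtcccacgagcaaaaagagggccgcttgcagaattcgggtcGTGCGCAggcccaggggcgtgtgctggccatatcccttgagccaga
Such letters were found for 38.6% of the genes tested and in 25.7% of all windows, for 35.9% of genes that rose and 38.1% of those that fell. Mt1 was 11.04 to 12.11 in C (median 11.59), 11.08 to 12.80 in MF (median 11.65), 10.68 to 12.74 in CR-MF (median 11.50) and 8.52, 9.77, 9.91, 10.24 and 11.38 in the CR mice. Mt2 was 12.74 to 13.36 in C, 12.80 to 13.44 in MF, 12.04 to 13.44 in CR-MF and 9.64, 11.43, 11.74, 12.43 and 12.88 in the CR mice. CR mice were low, and CR-MF mice overlapped with both never restricted groups. Mt1 fell by 0.99 (standard error 0.25, adjusted p = 0.0182 from limma), with −1.56 in CR minus C and −0.42 in CR-MF minus MF. Mt2 fell by 0.87 (standard error 0.22, adjusted p = 0.0171 from limma), with −1.37 and −0.37. The interaction was called for neither (adjusted p = 0.619 and 0.615 from limma). The zinc importers Slc39a4 (−0.96, adjusted p = 0.0115) and Slc39a5 (−0.34, adjusted p = 0.0156) also fell, which made 4 of the 14 genes of this list. Within plate G150 alone none of these 4 passed the threshold.

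**Figure D4:**
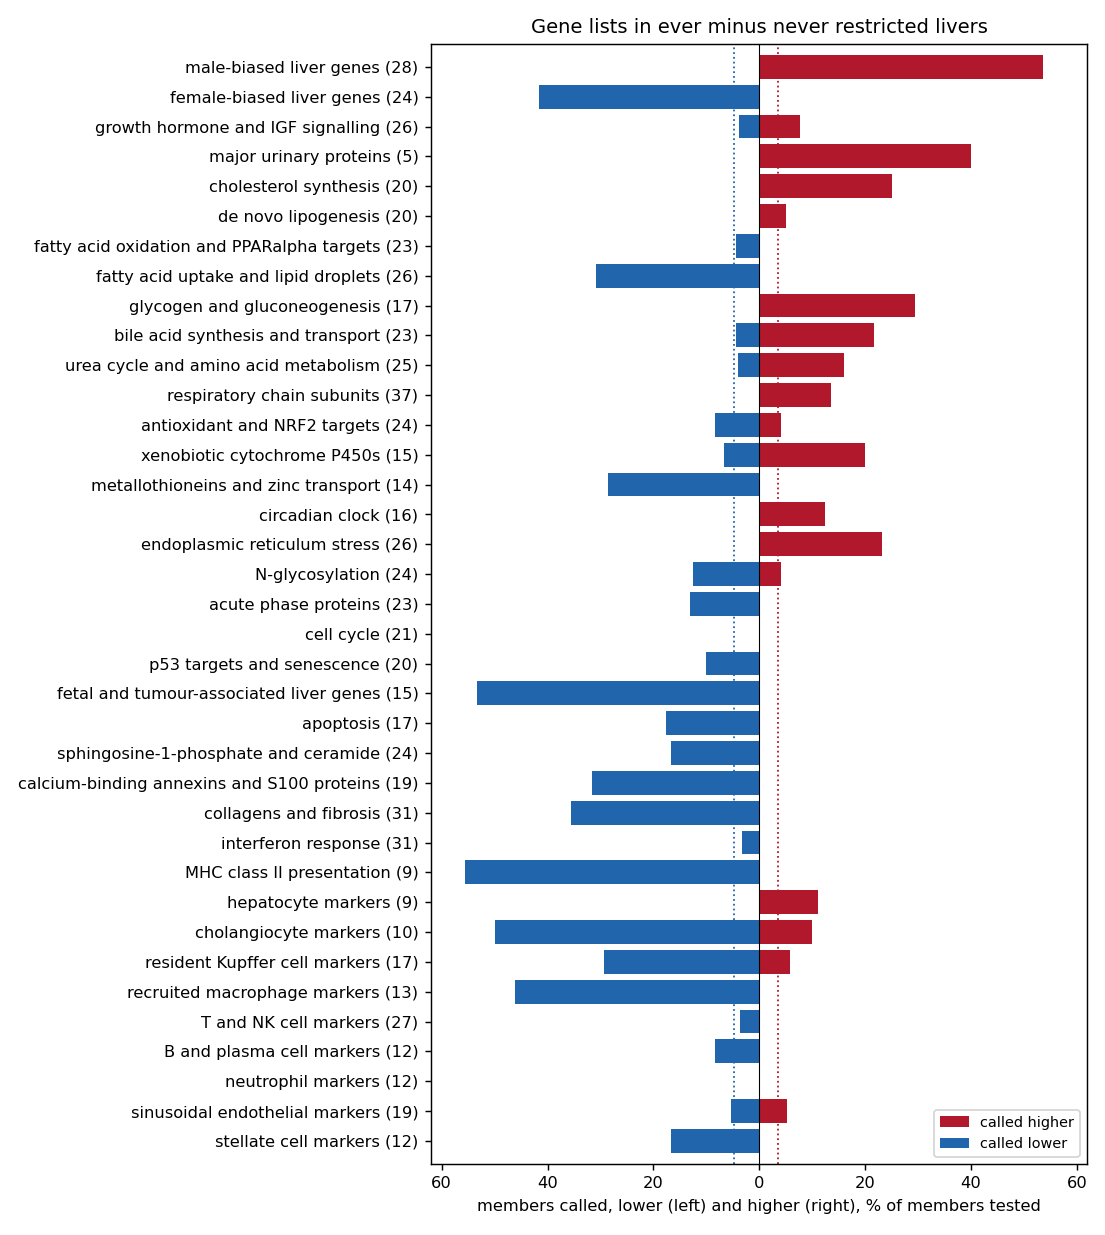
Share of the tested members of each gene list (number tested in brackets) that were called lower (bars to the left, %) or higher (bars to the right, %) in ever minus never restricted livers; dotted lines mark the shares over all genes, 4.73% lower and 3.5% higher. Male-biased genes have the longest bar to the right, and MHC class II (55.6%) and fetal and tumour-associated genes (53.3%) the longest to the left. Cholangiocyte markers (50%) and recruited macrophage markers (46.2%) follow. The adipocyte, exocrine pancreas and red blood cell markers, the lists with the fewest genes tested, are not drawn.

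Of 15 genes of the fetal liver and of liver tumours 8 fell and none rose, with a median of −0.28. Ly6d, a surface protein of the Ly6 family (chr15:74762056-74763567), was 7.34 to 9.65 in C (median 8.39), 8.04 to 10.87 in MF (median 8.28), 6.83 to 9.09 in CR-MF (median 6.91) and 5.90, 6.01, 6.47, 6.76 and 8.04 in the CR mice. Of the ever restricted mice, 10 of 12 were below all never restricted mice. It fell 3.34-fold (log2 difference −1.74, standard error 0.33, adjusted p = 0.00289 from limma), with −1.85 in CR minus C and −1.63 in CR-MF minus MF. Cd24a fell by 1.01 (standard error 0.22, adjusted p = 0.00723) and Epcam, an adhesion molecule of bile ducts and progenitor cells, by 0.51 (standard error 0.13, adjusted p = 0.0171). Cholangiocytes share such genes: of 10 cholangiocyte markers 5 fell (2 without B4_1, 3 without BC4_13) and 1 rose, Epcam among the falls, and their summed level was 8.90 to 9.37 in C, 9.10 to 9.76 in MF, 8.97 to 9.12 in CR and 8.99 to 9.26 in CR-MF. Cftr of this list was under the threshold in every mouse, and the part of these cells in the result was not tested. None of 21 cell cycle genes was called (limma), with 11 at an unadjusted p under 0.05, a median of −0.35 and 19 below 0. With 1 mouse left out, 0 to 9 of them fell: 9 without B4_5, 5 without C4_9, 4 without BC4_11, 3 without C4_13, 2 without A4_1 and 1 without BC4_15, C4_11 or C4_15. Without both BC4_11 and BC4_15, 5 fell.

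Of 19 annexins, S100 proteins and other calcium-related genes 6 fell. Rcan2, the calcineurin inhibitor described above, was counted among them. Anxa2, which links membranes to the cytoskeleton, was 7.50 to 8.59 in C (median 8.08), 7.78 to 9.72 in MF (median 8.57), 6.84 to 8.26 in CR-MF (median 7.14) and 6.99, 7.12, 7.19, 7.35 and 7.79 in the CR mice. It was lower in 10 of the 12 ever restricted mice than in any other, and fell 2.17-fold (log2 difference −1.12, standard error 0.18, adjusted p = 0.000613 from limma). Anxa5 fell by 0.53 (standard error 0.09, adjusted p = 0.00156). Of 20 p53 and senescence genes 2 fell (10%, 1 to 4 genes with 1 mouse left out), with a median of −0.07 and 8 above 0. Of 17 apoptosis genes 3 fell (17.6%, 1 to 4 genes), and of 24 sphingosine-1-phosphate and ceramide genes 4 (16.7%, 2 to 6 genes). Their medians were −0.13 and −0.12. Ccng1, a target of p53, fell by 0.42 (standard error 0.07, adjusted p = 0.00122) and Apaf1, of the apoptosome, by 0.44 (standard error 0.11, adjusted p = 0.0185). S1pr2, a receptor for sphingosine-1-phosphate, fell by 0.32 (standard error 0.06, adjusted p = 0.00228). Of 23 acute phase proteins, 3 fell (Lcn2, Orm3 and Saa2), a count that was 1 without B4_1 and reached 8 without B4_7 or BC4_11. Lcn2, which binds bacterial siderophores, fell by 1.31 (adjusted p = 0.0205, standard error 0.34), and Saa2 by 1.58 (adjusted p = 0.0485), a call that ended on leaving out any of 17 single mice.

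Of 13 markers of recruited macrophages 6 fell and all 13 were below 0, with a median of −0.72 (−1.10 in CR minus C and −0.51 in CR-MF minus MF). Of 17 markers of resident Kupffer cells 5 fell and 1 rose, with a median of −0.38. With 1 mouse left out the falls numbered 4 to 10 for recruited macrophages (10 without BC4_11) and 1 to 6 for Kupffer cells, where 17 single mice each took the count to 3 or fewer. Gpnmb, a glycoprotein of lipid-laden macrophages (chr6:49036518-49058182), was 5.79 to 9.76 in C (median 6.94), 6.31 to 8.13 in MF (median 7.25), 5.25 to 6.65 in CR-MF (median 5.94) and 5.29, 5.33, 5.68, 6.05 and 6.33 in the CR mice. Of the never restricted mice 11 of 15 were above all ever restricted mice. It fell 2.63-fold (log2 difference −1.39, standard error 0.29, adjusted p = 0.00576 from limma), with −1.40 in CR minus C and −1.39 in CR-MF minus MF. Trem2, a lipid receptor, fell by 1.25 (standard error 0.27, adjusted p = 0.00636), Lgals3 by 0.72 (standard error 0.18, adjusted p = 0.0167) and C1qb, of complement, by 0.67 (standard error 0.16, adjusted p = 0.011). Cd163, the scavenger receptor for haemoglobin on Kupffer cells, rose by 1.22 (adjusted p = 0.0385, standard error 0.36), and lost its call on leaving out any of 15 single mice.

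The summed level of the recruited macrophage markers was 11.01 to 12.30 in C, 10.63 to 11.62 in MF, 10.32 to 10.88 in CR and 10.35 to 11.98 in CR-MF. That of the Kupffer cell markers was 13.37 to 14.92, 13.45 to 14.67, 13.19 to 13.64 and 13.23 to 14.69. CR mice thus lay at the low end and within a narrow span. Of 27 T and NK cell markers only Themis, needed for T cell selection, fell (by 1.14, standard error 0.19, adjusted p = 0.000814 from limma). Of 12 B and plasma cell markers only Bank1 fell (adjusted p = 0.0486 from limma). None of 12 neutrophil markers was called (1 at an unadjusted p under 0.05). The shares that fell in the first 2 of these lists, 3.7% and 8.33%, stood against 4.73% over all genes. The summed T and NK cell level was 10.12 to 10.24 in the CR mice and 9.91 to 12.15 in the others. The part of these cells in the results was not tested. Of 19 sinusoidal endothelial markers 1 rose and 1 fell (5.26% each, against 3.5% and 4.73% over all genes), with a median of −0.02. Of 12 stellate cell markers 2 fell (16.7%), with a median of −0.12. With 1 mouse left out, 0 to 1 endothelial markers rose and 0 to 3 fell, and 0 to 2 stellate cell markers fell. None of 2 red blood cell and 4 exocrine pancreas markers was called.

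Of 9 genes of antigen presentation by MHC class II 5 fell, with a median of −0.84, made of −1.32 in CR minus C and −0.38 in CR-MF minus MF. H2-Aa was 9.02 to 11.53 in C (median 10.73), 9.44 to 11.41 in MF (median 9.96), 8.59 to 11.50 in CR-MF (median 9.62) and 8.54, 8.86, 8.95, 8.97 and 9.33 in the CR mice. CR mice were low, and CR-MF mice overlapped with all other groups. Its fall of 0.98 (standard error 0.29, adjusted p = 0.0378 from limma) lost its call on leaving out any of 13 single mice, and with 1 mouse left out the list had 0 to 6 falls.

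Of 31 genes of collagens and fibrosis 11 fell and none rose, with a median of −0.33 and 29 below 0, and medians of −0.38 in CR minus C and −0.34 in CR-MF minus MF. The count was 7 without B4_13 or BC4_5, 24 without BC4_11 and 25 without BC4_11 and BC4_15. Timp2, an inhibitor of matrix proteases, was 8.01 to 9.00 in C, 8.09 to 9.12 in MF, 7.51 to 8.49 in CR-MF and 7.71, 7.72, 7.76, 7.92 and 7.98 in the CR mice. It fell by 0.69 (standard error 0.13, adjusted p = 0.00247 from limma), and 10 of the 12 ever restricted mice were below all others. Lum, the proteoglycan lumican, fell by 0.65 (standard error 0.15, adjusted p = 0.00882), Pdgfrb, a receptor of matrix-forming cells, by 0.45 (standard error 0.11, adjusted p = 0.0128), and Mmp12, the macrophage elastase, by 1.07 (standard error 0.28, adjusted p = 0.0211). The fibrillar collagens Col1a1, Col1a2 and Col3a1 were not called.

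In the interferon response the diet-matched pairs had opposite medians. Only Oas2 of 31 genes was called, as lower (−0.58, adjusted p = 0.0272 from limma, ended without 2 single mice), and the median over the list was −0.09. In CR minus C, 28 of the 31 genes were below 0 (median −0.59), and in CR-MF minus MF 30 were above 0 (median 0.39). Ifit1 had mean levels of 7.78 in C, 6.71 in CR, 7.30 in MF and 8.26 in CR-MF, which gives −1.07 in CR minus C and 0.96 in CR-MF minus MF. The interaction had an unadjusted p under 0.05 for 26 of the 31 genes, against 7.65% of all genes, and for 20 of them within plate G150 and 22 without BC4_11 and BC4_15. With any 1 mouse left out the number was 23 to 29. No gene of the list passed the adjustment over all genes, and members of such a list are not independent of each other.

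**Figure D5:**
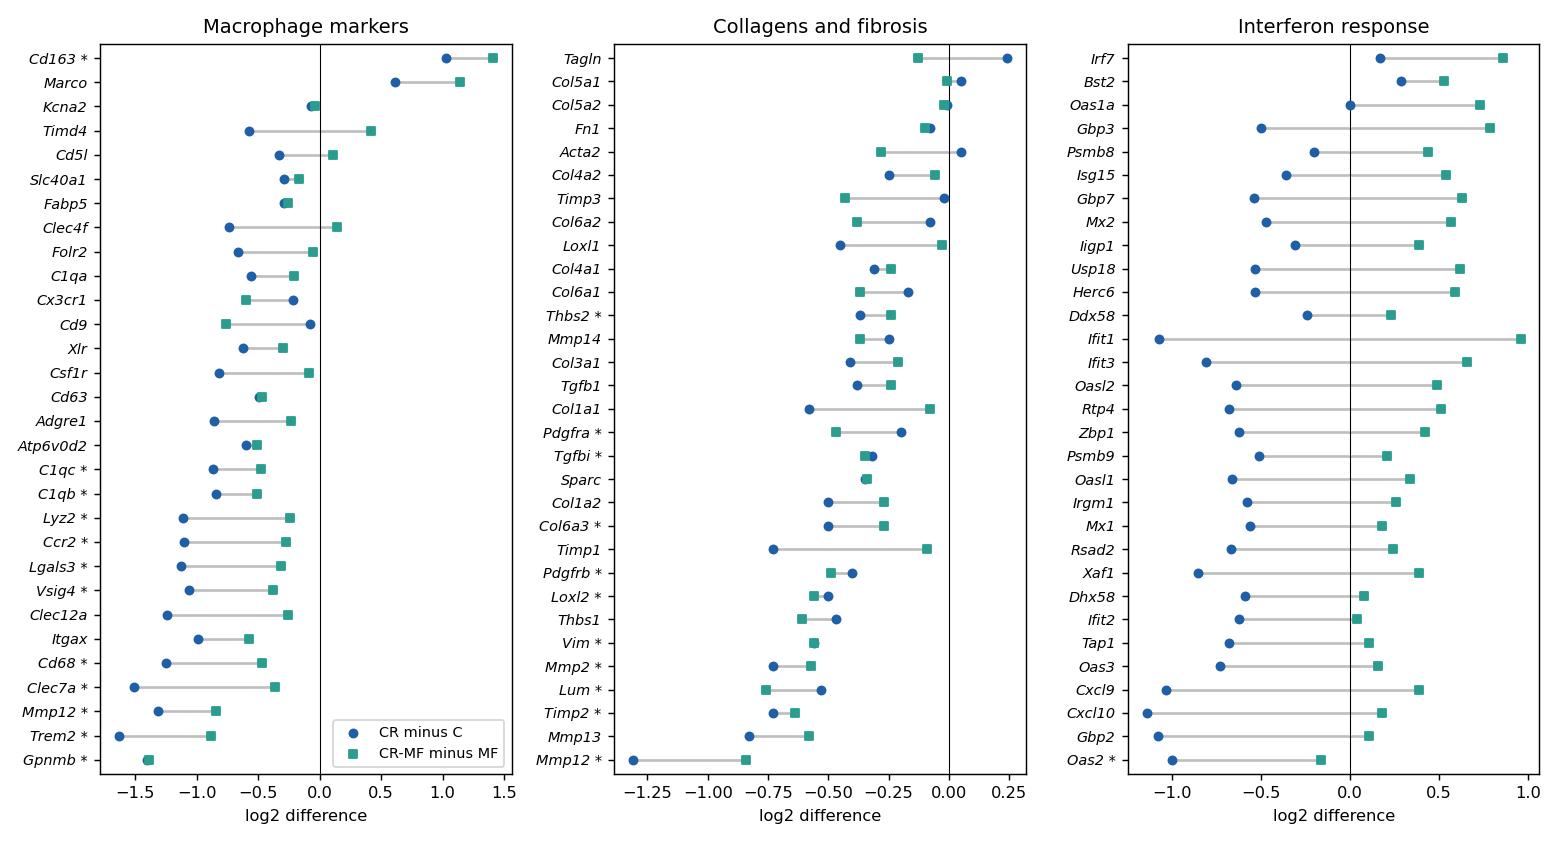
Log2 differences (x axis) of the tested macrophage markers, collagen and fibrosis genes and interferon response genes, CR minus C as circles and CR-MF minus MF as squares; an asterisk marks genes called in the ever minus never contrast. Macrophage and matrix genes lie mostly left of 0 in both pairs, while interferon genes lie left of 0 in CR minus C and right of 0 in CR-MF minus MF.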

How the data were processed

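Liver RNA of 27 mice was hybridised to Affymetrix Mouse Gene 1.1 ST arrays. The authors deposited RMA values, that is background-corrected, normalized and summarised intensities on the log2 scale, for each transcript cluster. Signal over background and the number of mice limit the precision. Transcript clusters with 1 gene symbol were used, by the cluster with the highest mean where a gene had several; genes with several or no symbols were not analysed here. The filter kept genes whose intensity exceeded 20 on 5 or more arrays and whose interquartile range exceeded 0.1.

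The means of the 4 groups were fitted in limma 3.58.1 (R 4.3.3) with a trended eBayes prior and 23 residual degrees of freedom, and the contrasts were tested with Benjamini-Hochberg adjustment over 13993 genes. The fit was tested on simulated data. The groups come from the labels of the arrays, and plate and well from codes in the array names, whose meaning is inferred. Mouse numbers recur between groups. Of 27 pairs with the same number, 13 had a correlation of deviations over 0.1 (median 0.09, highest 0.36). Pairs with different numbers were not summarised beside them, so these values cannot show whether a shared number is more than a name.

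The groups, gene lists, motifs and rules were chosen with earlier results of these data known. Named are the 12 largest rises and 12 largest falls with CR minus C and CR-MF minus MF in the same direction (without unnamed or predicted genes), the 3 members of each list with the smallest p, and genes the study names; other list members are named as examples after their values were seen. Alternatives were quantile normalization, median centring, no filter, a filter at an intensity of 100, the mean of all clusters, eBayes without a trend or robust, the intensity-based moderated statistic of the study, array weights, a block for the plate or for the animal number, the mice of plate G150 only, each mouse weighted equally, and mice left out. Promoter sequences and gene coordinates are those of RefSeq on GRCm38.p6, where 18790 of 18820 genes were matched by gene ID. Figures were drawn with matplotlib 3.10.9 (Python 3.11.15).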

Additional observations from a re-analysis of the deposited data

Results flagged for a closer look

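Among the 24 genes with the largest rises and falls, 96 groups of mice were looked at for a single mouse far from the rest, and 7 were found; chance alone gives about 1 in 20 groups. Cd163 was 9.09 in the C mouse A4_3, the highest of its group, with the other mice at 4.54 to 6.22. Cd163 was 6.30 in the MF mouse C4_15, the highest of its group, with the other mice at 4.30 to 4.99. Ly6d was 9.09 in the CR-MF mouse BC4_15, the highest of its group, with the other mice at 6.83 to 7.04. Cidec was 6.16 in the MF mouse C4_1, the lowest of its group, with the other mice at 8.67 to 9.97. Gpnmb was 9.76 in the C mouse A4_9, the highest of its group, with the other mice at 5.79 to 7.56. Aqp7 was 5.97 in the CR mouse B4_5, the highest of its group, with the other mice at 4.13 to 4.53. Lcn2 was 12.27 in the CR mouse B4_7, the highest of its group, with the other mice at 9.65 to 10.01. Each lies far from its group by the gap to the nearest mouse over the range of the group.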

How the results depend on the processing

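The direction of the 1152 calls held under the alternatives run, except for 1 gene with the mean of all clusters, Bak1, which went from −0.26 to 0.01. Not all calls were kept. Array weights kept 1145 of the 1152, leaving out BC4_11 and BC4_15 kept 1124, and median centring kept 915. The animal number as a replicate block kept 751 and plate G150 alone 515. With 1 mouse left out, 698 to 1142 were kept, the fewest without B4_3. Of the 1152 calls, 301 were not tested under the filter at an intensity of 100. The number of calls was 2648 after median centring, 2384 with array weights, 2304 without BC4_11 and BC4_15 and 677 within plate G150. In the same order, the genes with both diet-matched differences at an unadjusted p under 0.05 numbered 1003, 977 and 1079, the calls in CR minus C 658, 1077, 662 and 52, and those in CR-MF minus MF 515 with array weights, 587 without both mice and 114 within the plate. The calls of the medium-fat diet now were 26 after quantile normalization, 27 with array weights, 9 with plates blocked and 1 in G150 only. Genes without overlap numbered 0 after median centring, 20 within plate G150 and 14 without BC4_11 and BC4_15, both of which compare fewer mice. With any 1 mouse left out, the calls of ever minus never were 728 to 1946, those with both differences 394 to 888, CR minus C 42 to 569, CR-MF minus MF 91 to 423, the medium-fat diet 5 to 35, the interaction 0 to 1 (1 without A4_19 or B4_5) and genes without overlap 3 to 5. The lowest number in CR minus C was without B4_3 and the highest without A4_1, and in CR-MF minus MF without BC4_9 and BC4_11. The animal number as a replicate block pairs mice that share a number (3 of 24 correlated best with their own number). With this block there were 940 calls in ever minus never, 8 in CR minus C, 130 in CR-MF minus MF and 2 for the diet now. The cause of these changes was not tested.

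Of 145 genes followed one by one, 112 were called, and 53 of these kept their call in all 41 other fits. Another 9, Dnaja4 and Mbnl3 among them, kept it in every fit that tested them, which leaves out the filter at an intensity of 100. The direction of Cela3b, not called at −0.09, turned to 0.00 after median centring and 0.06 within plate G150; no other followed gene but Bak1 changed direction. Median centring moved the median of all genes from 0.00894 to 0.0978. Levels near the threshold, as in MF for Hsd3b5, limit the size of a difference that can be given.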
